A study of Mus musculus with 8 samples.

Results

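CD8+ T cells from the spleen of P14 mice were compared at 2 points of a culture: Effector cells, collected on day 7, and Acute-2d cells, which were activated over days 0 to 2, then kept without peptide and collected on day 19. The comparison took in all 24303 genes of the deposited table and 4 of its 8 libraries, 2 per condition, on log2(normalized count + 1). P14 mice are C57BL/6 mice in which a transgene gives CD8+ T cells a receptor that recognises GP33, a peptide of lymphocytic choriomeningitis virus (LCMV). Antibodies to CD3 and CD28 activated the cells of both conditions for 2 days, after which they were grown in medium with IL-2 and IL-15. The labels do not state whether Effector cells received GP33 between day 2 and day 7, and they give no end of stimulation for them. In its flow cytometry the paper names the day 7 cells Effector 7d-stim. Day in culture (7 or 19), time since stimulation and any GP33 exposure of Effector cells therefore changed together and cannot be told apart. The conditions also differed in sex-linked genes and in a prefix of the library names, given below. The other 4 libraries, Acute-7d (last GP33 on day 7, collected on day 19) and T_Dysf (repeated GP33 and TGF-β1, collected on day 19), entered the fit to measure the spread between replicates, and their values are given only beside those of Effector and Acute-2d.

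An activated CD8+ T cell leaves quiescence, grows, divides rapidly and builds lytic granules. Division needs nucleotides, proteins and membrane, so glucose uptake, amino acid transport, ribosome production and lipid synthesis are raised in such cells, while inhibitory receptors such as PD-1 appear on their surface. Once stimulation ends and IL-15 is supplied, cells can return to a memory-like state with little division, held by transcription factors such as TCF-1 and FOXO1 and by survival signals through the IL-7 receptor.

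By the worth of the smallest step in each, the 4 libraries had 20208641 to 22674387 reads assigned to genes, and a value of 3 reads, 2.74 to 3.24 normalized counts, was taken as the floor. This floor covers counting error only. All 9 T cell identity genes were present at high levels and none was called: *Cd8a*, a chain of the CD8 co-receptor, had 11170.3 and 19543 normalized counts in Effector and 22007 and 18853 in Acute-2d, and *Cd3e*, a subunit of the T cell receptor complex, had 11448 and 9573 in Effector and 12665 and 11069 in Acute-2d. *Cd4* was low, with 2.74 and 13.0 in Effector and 1.05 and 1.08 in Acute-2d, and the summed level of the 7 B cell genes ran from 159 to 198 normalized counts in Effector and from 122 to 144 in Acute-2d. Of 8 myeloid genes, with sums of 579.6 to 789.8 in Effector and 658 to 1063 in Acute-2d, only *Csf1r*, the receptor for M-CSF, was called, with 6.49 and 6.64 in Effector and 20.9 and 18.1 in Acute-2d. No marker of CD4 T cells, NK cells, B cells, plasma cells, dendritic cells, erythroid cells or stromal and endothelial cells was called. Among these, *Jchain* of plasma cells was at 5.48 and 3.01 in Effector and 7.37 and 5.40 in Acute-2d, and *Ighm* was the one immunoglobulin gene above 1000, with 5635 and 6066 in Effector and 3466 and 3711 in Acute-2d. The part that other cells play in the results was not tested.

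A prefix, RESUB, stands in the names of 3 libraries, both of Effector and the first of Acute-7d, and the labels do not explain. The same 3 libraries differed from the rest in sex-linked genes. *Xist*, transcribed from the inactive X chromosome, had 115 and 53.5 normalized counts in Effector and 26861 and 22106 in Acute-2d, and *Ddx3y*, a Y-linked gene, had 1334 and 1491 in Effector and 0 and 0 in Acute-2d. Acute-7d replicate 1 had 54.5 for *Xist* and 2161 for *Ddx3y*, against 30427 and 0 in replicate 2. Prefix, sex-linked genes and condition therefore coincide in the 4 libraries compared and cannot be told apart within them. Genes that follow the prefix split the Acute-7d pair, which widens their standard error, so the 6 sex-linked genes, *Xist* included (log2 fold change -8.26 ± 2.93; the value after ± is the standard error, SE, here and below), were not called. A fit with a term for the prefix, which rests on the Acute-7d pair, is given below where it bears on a result.

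**Figure D1:**
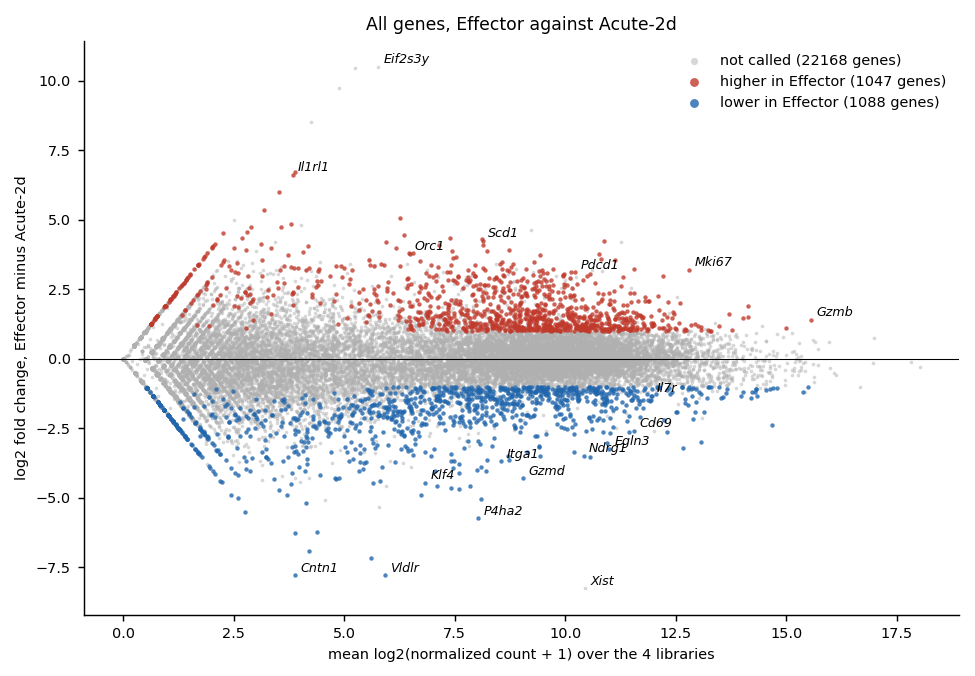
Log2 fold change of Effector over Acute-2d (vertical axis) against the mean log2(normalized count + 1) of the 4 libraries (horizontal axis) for all 24303 genes. The 1047 genes called higher in Effector are red, the 1088 called lower are blue, and *Xist* and *Eif2s3y*, which split by the RESUB prefix, lie far out in grey because they were not called.

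Between Effector and Acute-2d, 2135 genes were called in the limma fit, with Benjamini-Hochberg adjusted p-values (fold change of at least 2, adjusted p under 0.05; such genes are DEGs here), 1047 higher and 1088 lower in Effector. They made up 8.78% of all genes tested, 4.31% higher and 4.48% lower. Among the 11973 genes whose 4 libraries averaged 50 normalized counts or more, 892 (7.45%) were higher and 763 (6.37%) lower, together 13.8%. The median log2 fold change over these genes was 0.02. The 4 distances between an Effector and an Acute-2d library over these genes (Euclidean, log2 scale) averaged 112 ± 11.1 (SD), against 56.5 between the Effector and 43.8 between the Acute-2d libraries. The median fold of the DEGs was 3.03 for those higher and 3.26 for those lower. In every DEG the 2 Effector libraries lay on 1 side of the 2 Acute-2d libraries, an arrangement that 25.6% of all genes showed with Effector higher and 28.6% with Effector lower. Of the DEGs, 480 had a mean under 50 and 79 of these had all 4 libraries at or under the floor. In bulk RNA a difference in the number of cells that express a gene and a difference in its RNA per cell cannot be told apart. No gene with a mean under 50 is described below except members of the lists, with their values.

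How far the calls rest on single libraries differed between gene groups. Leaving out Acute-2d replicate 1 left 553 DEGs and leaving out Acute-2d replicate 2 left 1104. Without Effector replicate 1 there were 2363 and without Effector replicate 2 997. Without either T_Dysf library, which only serves the spread, there were 1030 or 1023. With the RESUB term the fit has 1 residual degree of freedom less and a wider standard error, and it called 194 genes higher (0.798% of all genes) and 156 lower (0.642%), of which 154 were among the 2135. All 2135 DEGs kept their direction with that term, and 981 of the higher and 987 of the lower genes kept a fold change of at least 2. Few genes that split the Acute-7d pair could be called in the first place, so that DEGs kept their change with the term was largely fixed in advance. These counts therefore do not measure the prefix, within the DEGs or outside them. For each group below, the members called whichever of the 8 libraries was left out are named.

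**Figure D2:**
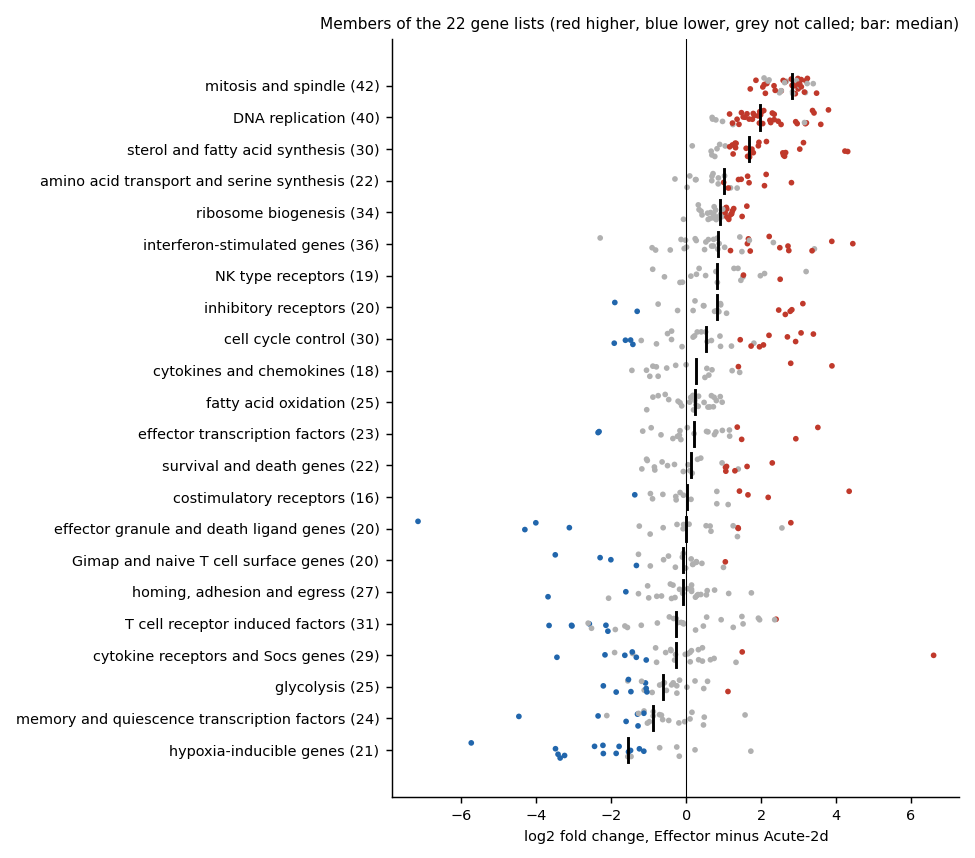
Log2 fold change of Effector over Acute-2d (horizontal axis) for each member of 22 gene lists (rows, with the number of members in the table). Red points were called higher in Effector, blue points lower and grey points were not called, and the black bar is the median, which ran from -1.56 for hypoxia-inducible genes to 2.83 for mitosis and spindle genes.

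Genes of sterol and fatty acid synthesis were higher in Effector cells. Of 30 members, 23 were called higher (76.7%, against 4.31% of all genes) and none lower. The median log2 fold change was 1.66, against 0.02 over all genes with a mean of at least 50. *Cyp51*, which removes a methyl group from lanosterol, had 4582 and 4019 normalized counts in Effector and 549.8 and 499.8 in Acute-2d (log2 fold change 3.03 ± 0.10, adjusted p = 0.00076), the pair of values in each condition lying close together. *Idi1*, which interconverts the isoprenoid building blocks, had 3242 and 3372 in Effector and 374 and 379 in Acute-2d (log2 fold change 3.13 ± 0.26, adjusted p = 0.0090), and *Sqle*, which makes squalene epoxide, had 3067 and 2545 in Effector and 589 and 679 in Acute-2d (log2 fold change 2.14 ± 0.12, adjusted p = 0.0047). Members along the whole pathway were higher, from HMG-CoA synthase (*Hmgcs1*, log2 fold change 2.63) through farnesyl diphosphate synthase (*Fdps*, 2.58) to the reductase of the last step of one branch (*Dhcr7*, 1.32). The largest differences of the list lay in 2 fatty acid desaturases: *Fads2* had 1388 and 1079 in Effector and 52.7 and 70.2 in Acute-2d (log2 fold change 4.31 ± 0.33) and *Scd1* 1826 and 817 in Effector and 66.3 and 61.5 in Acute-2d (4.24 ± 0.44). *Fasn*, fatty acid synthase, was higher by 1.25 and *Acaca*, which makes its substrate, by 1.64 on the log2 scale. The transcription factors of the pathway differed less and stayed under the fold limit, with *Srebf2* at 0.82 (adjusted p = 0.028) and *Srebf1* at 0.67 (adjusted p = 0.029). A total of 10 members, among them *Idi1*, *Fdps*, *Sqle*, *Cyp51*, *Dhcr7*, *Elovl6* and *Fads2*, were called whichever library was left out, and the count was 11 without Acute-2d replicate 1 and 14 without Acute-2d replicate 2. With the RESUB term the median was 1.62 and 5 members were called. Acute-7d libraries lay with Acute-2d: *Cyp51* had 385 and 431 and *Fdps* 264 and 285 there, and no member was called between Acute-7d and Acute-2d. Only 0.169% of all genes were called in that contrast.

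Hypoxia-inducible genes, which HIF transcription factors switch on when oxygen is short or HIF is stabilised by other means, went the other way. Of 21 members in the table, 14 were called lower in Effector (66.7%, against 4.48% of all genes) and none higher, with a median log2 fold change of -1.56. *Egln3*, one of the prolyl hydroxylases that mark HIF for degradation, had 581 and 749 normalized counts in Effector and 5315 and 7360.4 in Acute-2d (log2 fold change -3.24 ± 0.22, adjusted p = 0.0066), and its relative *Egln1* had 2392 and 2098 in Effector and 5959 and 6578 in Acute-2d (log2 fold change -1.48 ± 0.09, adjusted p = 0.0048). *P4ha1*, a collagen prolyl hydroxylase subunit, had 987 and 879 in Effector and 4685 and 5486 in Acute-2d (log2 fold change -2.44 ± 0.10, adjusted p = 0.0020). *P4ha2*, of the same enzyme family, had 96.9 and 12.0 in Effector and 1463 and 2461 in Acute-2d (log2 fold change -5.73 ± 0.99), so that its Effector libraries differed from each other more than the Acute-2d ones. *Vegfa*, the endothelial growth factor, had 222 and 138 in Effector and 1164 and 2818 in Acute-2d (-3.36 ± 0.47), and here the Acute-2d pair was spread widely. *Bnip3*, a mitophagy receptor, and *Ndrg1*, a stress-response gene, were lower by 2.22 and 3.49 on the log2 scale. *Ddit4*, an inhibitor of mTORC1 on the same list, had 3190.1 and 2114 in Effector and 409 and 1505 in Acute-2d and was not called (log2 fold change 1.73, adjusted p = 0.14). Of the 14, 9 (*Egln1*, *Egln3*, *Bnip3*, *Ndrg1*, *P4ha1*, *Ero1l*, *Kdm3a*, *Slc2a1* and *Pdk1*) were called whichever library was left out, and leaving out single libraries moved the count of 14 by no more than 1.5 times. With the RESUB term the median was -1.65 and 1 member was called. The Acute-7d libraries lay between, with a median log2 difference of -0.73 from Acute-2d; *Egln3* had 3077 and 2801 and *Vegfa* 781 and 969 in Acute-7d, and no member was called between the 2 conditions, a contrast in which 0.169% of all genes were called.

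The promoters of *P4ha2*, *Ankrd37* and *Egln3*, the 3 called hypoxia-inducible genes with the largest falls among those with a match at their first start, are shown because they carry the letters ACGTG, the core of the HIF binding motif, on either strand. Promoters that are not reported here were left out of this choice. Those shown are RefSeq promoters on GRCm38.p6, taken at the gene's first start and running from 250 bases before to 50 bases after the gene start, 5′ to 3′ on the gene's strand, with the letters in capitals. *P4ha2* lies on the plus strand at chr11:54100674-54100973, *Ankrd37* on the minus strand at chr8:45999801-46000100 and *Egln3* on the minus strand at chr12:54203825-54204124.
P4ha2: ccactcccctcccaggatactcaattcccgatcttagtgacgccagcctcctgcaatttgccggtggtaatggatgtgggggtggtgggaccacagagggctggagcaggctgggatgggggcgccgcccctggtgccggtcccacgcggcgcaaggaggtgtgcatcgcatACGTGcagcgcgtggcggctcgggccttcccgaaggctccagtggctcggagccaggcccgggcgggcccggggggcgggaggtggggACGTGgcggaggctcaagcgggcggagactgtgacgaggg
Ankrd37: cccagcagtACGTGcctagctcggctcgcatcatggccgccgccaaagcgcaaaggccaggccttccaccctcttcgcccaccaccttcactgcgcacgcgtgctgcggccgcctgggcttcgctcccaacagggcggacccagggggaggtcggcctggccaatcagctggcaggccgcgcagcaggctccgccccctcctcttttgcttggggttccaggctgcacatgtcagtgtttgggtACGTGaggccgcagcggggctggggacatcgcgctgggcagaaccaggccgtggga
Egln3: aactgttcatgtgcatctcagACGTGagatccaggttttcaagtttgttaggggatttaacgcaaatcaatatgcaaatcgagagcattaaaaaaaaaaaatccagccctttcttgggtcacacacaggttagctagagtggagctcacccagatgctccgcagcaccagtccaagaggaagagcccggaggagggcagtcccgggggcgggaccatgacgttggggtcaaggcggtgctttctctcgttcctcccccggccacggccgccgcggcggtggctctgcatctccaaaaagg
The letters occurred in 16 of 26 promoters of the list (61.5%, exact 95% interval 40.6 to 79.8%) and in 4023 of 17254 promoters of all genes of the table that the promoter set covers (23.3%). They are part of CACGTG, to which MYC and other factors bind, and this search was added after the values were seen. Promoters with at least 2 matches made up 19.2% of the list (exact 95% interval 6.55 to 39.4%) and 10.2% of all. Matches on either strand count separately, so a single CACGTG counts as 2. Several genes have more than 1 start and each start counts. A match is a description of the sequence and shows no binding.

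Of 25 glycolysis genes 7 were called lower (28%, against 4.48% of all genes) and 1 higher (4%, against 4.31%) in Effector. The median log2 fold change was -0.62 (-0.82 to -0.43 when single libraries were left out), 5 members were positive, and 6 members are shared with the hypoxia list. Acute-7d lay near Effector in this list. The median was -0.68 for Acute-7d minus Acute-2d, with no member called, and 0.02 for Effector minus Acute-7d. Between Acute-7d and Acute-2d only 0.169% of all genes were called. The transporters were lower in Effector than in Acute-2d: *Slc2a1*, which encodes GLUT1, had 1164 and 1545 normalized counts in Effector and 4078 and 5872 in Acute-2d (log2 fold change -1.87 ± 0.23, adjusted p = 0.015), and *Slc2a3*, which encodes GLUT3, was lower by 1.54 on the log2 scale. All 3 phosphofructokinase genes were lower (*Pfkl* -1.47, *Pfkp* -1.09, *Pfkm* -1.05), as was *Pfkfb3*, which makes their activator (-1.07). *Pdk1*, the kinase that turns off pyruvate dehydrogenase, had 2453 and 2018 in Effector and 9586 and 11050 in Acute-2d (log2 fold change -2.21 ± 0.14, adjusted p = 0.0054). Among the 17 members not called, *Gapdh*, a central enzyme of the pathway, had 8507 and 7526 in Effector and 7186 and 8669.6 in Acute-2d and *Ldha*, which makes lactate, 35923 and 41632 in Effector and 29662 and 36317 in Acute-2d, with log2 fold changes of 0.02 and 0.24; these are 2 of the 5 positive members. *Slc16a1*, a lactate and pyruvate transporter, was the only member higher (log2 fold change 1.12 ± 0.22, adjusted p = 0.035) and was called in 1 of the 8 fits that left out a library. *Slc2a1*, *Pfkl* and *Pdk1* were called whichever library was left out, and for the lower members the count was 3 without Acute-2d replicate 2. None of the 25 fatty acid oxidation genes in the table was called, with a median of 0.23, though 3 were called higher without Effector replicate 1; *Cpt1a*, which carries fatty acids to the mitochondrion, had 1611 and 2419.7 in Effector and 1048 and 1218 in Acute-2d (log2 fold change 0.81, adjusted p = 0.081).

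**Figure D3:**
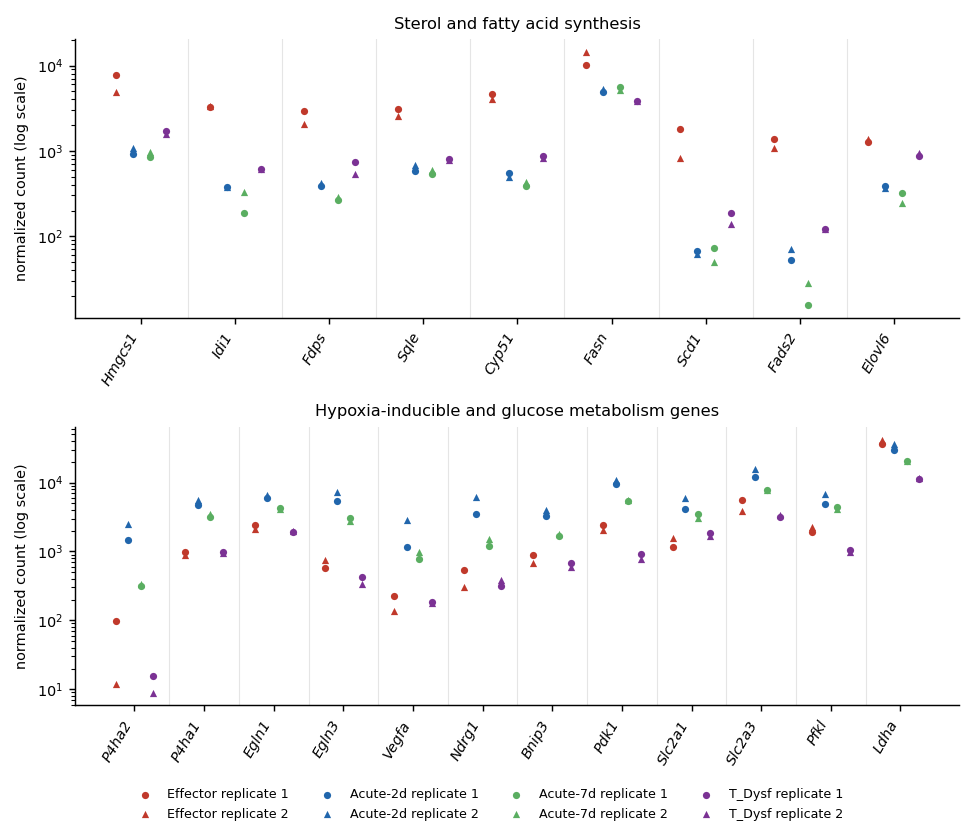
Normalized counts (vertical axis, log scale) of 9 lipid synthesis genes (top) and 12 hypoxia-inducible or glucose metabolism genes (bottom) in the 8 libraries; circles are replicate 1 and triangles replicate 2. Both Effector libraries lie above all other libraries for *Cyp51* and *Fdps*, and Acute-2d libraries lie above all others for *Egln3* and *Pdk1*, while *Ldha* is similar in Effector and Acute-2d.

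Amino acid and ribosome genes were higher in Effector in part. Of 22 amino acid transport and serine synthesis genes 9 were called higher (40.9%, against 4.31% of all genes) and none lower, with a median log2 fold change of 1.01. *Slc7a5*, which imports large neutral amino acids, had 5911 and 9322 normalized counts in Effector and 1727 and 1761 in Acute-2d (log2 fold change 2.09 ± 0.24, adjusted p = 0.013). In serine and folate metabolism, *Psat1* had 3172 and 4645 in Effector and 880.4 and 867 in Acute-2d (log2 fold change 2.13 ± 0.24), *Shmt1* 1111 and 1968 in Effector and 189 and 234 in Acute-2d (2.81 ± 0.31) and *Mthfd2* was higher by 1.47. In ribosome biogenesis, 13 of 34 members were called higher (38.2%, against 4.31% of all genes) and none lower (median 0.91). They included *Heatr1* (1.62), which acts in ribosomal RNA transcription and processing, and *Nop2* (2286 and 2687 in Effector and 827 and 936 in Acute-2d; log2 fold change 1.49 ± 0.10, adjusted p = 0.0065), a ribosomal RNA methyltransferase. *Ncl*, which encodes the abundant nucleolar protein nucleolin, was not called, at 0.65 (adjusted p = 0.14). *Nop2* and *Wdr75* were called whichever library was left out. Among amino acid genes the count was 0 without Acute-2d replicate 1 and 2 without Acute-2d replicate 2, 5 without Effector replicate 2 and 4 without either T_Dysf library, and among ribosome biogenesis genes the count was 2 without Acute-2d replicate 1 and 3 without Acute-2d replicate 2, 20 without Effector replicate 1 and 4 without Effector replicate 2, 6 without either Acute-7d library and 7 without either T_Dysf library. The 75th percentile scaling left 8 ribosome biogenesis genes called. *Myc*, a driver of both programmes in activated T cells, had 5540.3 and 6009 in Effector and 15615 and 15287 in Acute-2d and was lower in Effector (log2 fold change -1.42 ± 0.22, adjusted p = 0.022); it was called in 2 of the 8 fits that left out a library, and in Acute-7d it had 17721 and 11335.

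Cell division genes showed the largest median differences. All 40 DNA replication genes had positive log2 fold changes and 34 (85%, against 4.31% of all genes) were called higher (median 1.97). All 42 mitosis and spindle genes were positive too and 26 (61.9%) were called (median 2.83). *Mki67*, the gene of the Ki-67 proliferation marker, had 16144 and 28620.2 normalized counts in Effector and 3050.0 and 1817 in Acute-2d (log2 fold change 3.19 ± 0.63, adjusted p = 0.036). *Mcm5*, a subunit of the replicative helicase, had 5005 and 9708 in Effector and 948 and 891 in Acute-2d (log2 fold change 2.92 ± 0.41, adjusted p = 0.018), and *Orc1*, the largest subunit of the origin recognition complex, 237 and 452 in Effector and 26.3 and 19.4 in Acute-2d (log2 fold change 3.80 ± 0.43, adjusted p = 0.013). *Ccnb1*, the cyclin that starts mitosis, had 1549 and 2813 in Effector and 218 and 159 in Acute-2d (log2 fold change 3.48 ± 0.67, adjusted p = 0.033). For each of these 4 genes Effector replicate 2 was the highest library and both Acute-2d libraries lay well below either Effector library. Acute-2d cells still held these transcripts at levels above the floor.

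The number of calls in these lists moved with single libraries. For DNA replication, the count was 0 without Acute-2d replicate 1 and 2 without Acute-2d replicate 2, 17 without Effector replicate 2 and 10 without either T_Dysf library, while it was 34 without Effector replicate 1 and 28 without either Acute-7d library, and no member was called in every case. For mitosis and spindle genes, the count was 0 without either Acute-2d library, 12 without Effector replicate 1 and 1 without Effector replicate 2, 41 without either Acute-7d library and 3 without either T_Dysf library. The medians without single libraries stayed between 1.66 and 2.31 for replication and between 2.50 and 3.07 for mitosis. The Acute-7d pair lay apart in mitosis genes, with *Mki67* at 1096 in replicate 1 and 3371 in replicate 2, so with the RESUB term, which reads that gap as the prefix, the medians rose to 2.49 and 4.43. Under that term 1 replication gene and 14 mitosis genes were called.

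Promoters of called members are shown for the letters known to recruit cell cycle factors: E2F (TTTGGCGC, TTTGCCGC, TTTCGCGC or TTTCCCGC) for replication genes and the cell cycle homology region (CHR, TTTGAA) for mitosis genes, searched on both strands. The 3 replication genes and 2 mitosis genes with the largest differences among called members with a match at their first start are given, with the matches in capitals. Promoters that are not reported here were left out of this choice. In *Mcm5* a pair of E2F matches on opposite strands overlap. *Orc1* is at chr4:108579204-108579503, *Cdc6* at chr11:98907901-98908200, *Mcm5* at chr8:75109259-75109558 and *Kif4* at chrX:100625815-100626114, all on the plus strand, and *Mki67* at chr7:135716330-135716629 on the minus strand.
Orc1: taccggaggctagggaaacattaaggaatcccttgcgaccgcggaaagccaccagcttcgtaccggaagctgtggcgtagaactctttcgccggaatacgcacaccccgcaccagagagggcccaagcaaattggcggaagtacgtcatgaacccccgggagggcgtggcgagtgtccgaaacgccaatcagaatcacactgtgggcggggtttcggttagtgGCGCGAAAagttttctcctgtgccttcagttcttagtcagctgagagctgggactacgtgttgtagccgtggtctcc
Cdc6: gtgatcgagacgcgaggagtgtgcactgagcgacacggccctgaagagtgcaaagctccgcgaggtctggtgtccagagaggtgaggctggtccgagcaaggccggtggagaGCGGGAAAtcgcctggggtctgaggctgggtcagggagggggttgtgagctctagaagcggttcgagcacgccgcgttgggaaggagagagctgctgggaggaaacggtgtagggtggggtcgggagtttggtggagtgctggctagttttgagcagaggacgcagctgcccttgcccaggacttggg
Mcm5: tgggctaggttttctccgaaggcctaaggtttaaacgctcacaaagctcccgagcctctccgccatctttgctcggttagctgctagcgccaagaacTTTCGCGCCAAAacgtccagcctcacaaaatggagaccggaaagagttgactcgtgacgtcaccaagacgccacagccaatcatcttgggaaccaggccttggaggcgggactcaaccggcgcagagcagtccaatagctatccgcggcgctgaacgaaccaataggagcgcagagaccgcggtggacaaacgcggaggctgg
Kif4: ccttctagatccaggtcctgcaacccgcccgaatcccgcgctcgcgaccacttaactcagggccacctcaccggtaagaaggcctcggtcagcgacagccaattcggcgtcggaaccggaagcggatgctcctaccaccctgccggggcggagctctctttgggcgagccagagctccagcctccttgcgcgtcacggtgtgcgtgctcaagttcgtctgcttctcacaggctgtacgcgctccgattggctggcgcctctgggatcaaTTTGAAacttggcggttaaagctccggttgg
Mki67: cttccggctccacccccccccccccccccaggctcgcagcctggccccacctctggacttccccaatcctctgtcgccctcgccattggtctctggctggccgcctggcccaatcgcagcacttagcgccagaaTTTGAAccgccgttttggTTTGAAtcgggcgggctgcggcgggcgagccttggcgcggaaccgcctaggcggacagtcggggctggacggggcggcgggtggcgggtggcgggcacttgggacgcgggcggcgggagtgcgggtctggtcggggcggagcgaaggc
E2F letters were in 14 of 38 promoters of the replication list (36.8%, exact 95% interval 21.8 to 54.0%), against 3.34% of 17254 promoters of genes in the table. CHR letters were in 32 of 39 promoters of the mitosis list (82.1%, 66.5 to 92.5%), against 14.0%. The promoter set covers 33 of the 40 replication genes, 37 of the 42 mitosis genes and 18 of the 21 hypoxia-inducible genes. At least 2 matches were in 13.2% of the replication promoters for E2F, where matches may overlap (0.162% of all). For CHR they were in 23.1% of the mitosis promoters (1.57% of all). These shares describe the lists and do not depend on the libraries.

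Of 30 regulators of the cell cycle 9 were called higher (30%, against 4.31% of all genes) and 4, *Myc* among them, lower (13.3%, against 4.48%). The median was 0.54. Higher were the G1/S cyclin *Ccne1* (992 and 1709 normalized counts in Effector and 142 and 168 in Acute-2d; log2 fold change 3.07 ± 0.31, adjusted p = 0.011), its kinase *Cdk2* (1.73), and the activating and repressing E2F factors *E2f1* (2.21), *E2f2* (1.96), *E2f3* (1.44), *E2f7* (2.70) and *E2f8* (3.39), together with *Cdkn2a* (2.06) and *Cdkn3* (2.92), which encode a CDK inhibitor and a CDK phosphatase. The inhibitor *Cdkn1b*, which encodes p27, was lower, with 1868 and 1965 in Effector and 4774 and 6000.1 in Acute-2d (log2 fold change -1.48 ± 0.12, adjusted p = 0.0083), and so were *Btg1* (-1.92) and *Tob1* (-1.62), 2 antiproliferative genes of quiescent lymphocytes. The D cyclin *Ccnd3* was not called, at 0.22. *E2f3* and *Cdkn1b* were called whichever library was left out; of the higher members the count was 1 without Acute-2d replicate 1 and 2 without Acute-2d replicate 2, 3 without Effector replicate 2 and 4 without either T_Dysf library, and of the lower members the count was 1 without Acute-2d replicate 1 and 2 without Acute-2d replicate 2, 2 without Effector replicate 1 and 1 without Effector replicate 2 and 1 without either T_Dysf library.

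Of 20 inhibitory receptors 5, PD-1 among them, were called higher (25%, against 4.31% of all genes) and 2 lower (10%, against 4.48%) in Effector. The median was 0.82. *Pdcd1*, which encodes PD-1, had 4017 and 3043 normalized counts in Effector and 352 and 462 in Acute-2d (log2 fold change 3.11 ± 0.20, adjusted p = 0.0055). *Havcr2*, which encodes TIM-3, had 2152 and 1173 in Effector and 311 and 263 in Acute-2d (log2 fold change 2.47 ± 0.31, adjusted p = 0.015), *Tigit* 1860.5 and 977 in Effector and 236 and 153 in Acute-2d (log2 fold change 2.82 ± 0.38, adjusted p = 0.017) and *Btla* 928 and 1036 in Effector and 209 and 97.2 in Acute-2d (log2 fold change 2.78 ± 0.37, adjusted p = 0.017). *Cd200*, the ligand of CD200R and a marker of activated T cells, had 180.0 and 262 in Effector and 29.5 and 38.9 in Acute-2d (log2 fold change 2.65 ± 0.25). *Lag3* (4331 and 2711 in Effector and 1807 and 2270.3 in Acute-2d) had no overlap between conditions but was not called (log2 fold change 0.76 ± 0.25, adjusted p = 0.11), and *Ctla4* was lower by less than the fold limit, with 2408 and 2428 in Effector and 3930.4 and 4192 in Acute-2d (log2 fold change -0.75 ± 0.12, adjusted p = 0.024). *Vsir*, which encodes VISTA, a receptor of resting T cells, was lower, with 3479.7 and 2673 in Effector and 10052 and 12943 in Acute-2d (log2 fold change -1.90 ± 0.18, adjusted p = 0.011), as was *Cd200r1* (-1.31). Side by side, *Pdcd1* had 505 and 598 in Acute-7d and 3754 and 4022 in T_Dysf, and *Btla* had 289 and 242 and 69.9 and 60.5. *Pdcd1*, *Cd200* and *Vsir* were called whichever library was left out; of the higher members the count was 3 without either Acute-2d library, and of the lower members the count was 1 without either Acute-2d library, 1 without Effector replicate 2 and 1 without either T_Dysf library.

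Of 16 costimulatory receptors 4 were called higher (25%, against 4.31% of all genes) and 1 lower (6.25%, against 4.48%), with a median of 0.03. *Tnfrsf8*, which encodes the activation receptor CD30, had 560.2 and 1024 normalized counts in Effector and 24.2 and 54.0 in Acute-2d (log2 fold change 4.35 ± 0.61, adjusted p = 0.018). *Tnfrsf9*, which encodes 4-1BB, had 3207 and 4216 in Effector and 1329 and 1416 in Acute-2d (log2 fold change 1.42 ± 0.21, adjusted p = 0.020), and *Slamf6*, which encodes Ly108, 452 and 807 in Effector and 227 and 162 in Acute-2d (log2 fold change 1.65 ± 0.33, adjusted p = 0.036). *Cd40lg* was called higher at 11.9 and 13.0 in Effector and 1.05 and 3.24 in Acute-2d, close to the floor, where the fold is at least 3.85 against 3 reads. *Tnfrsf14*, the ligand of BTLA, was lower (134 and 213 in Effector and 458 and 419.9 in Acute-2d; log2 fold change -1.37 ± 0.25, adjusted p = 0.030), opposite to *Btla* itself. No costimulatory member was called in every fit that left out a library; of the higher members the count was 1 without Acute-2d replicate 1 and 2 without Acute-2d replicate 2, 0 without Effector replicate 2, 2 without either Acute-7d library and 1 without either T_Dysf library, and *Tnfrsf14* was called in 2 of 8 fits.

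**Figure D4:**
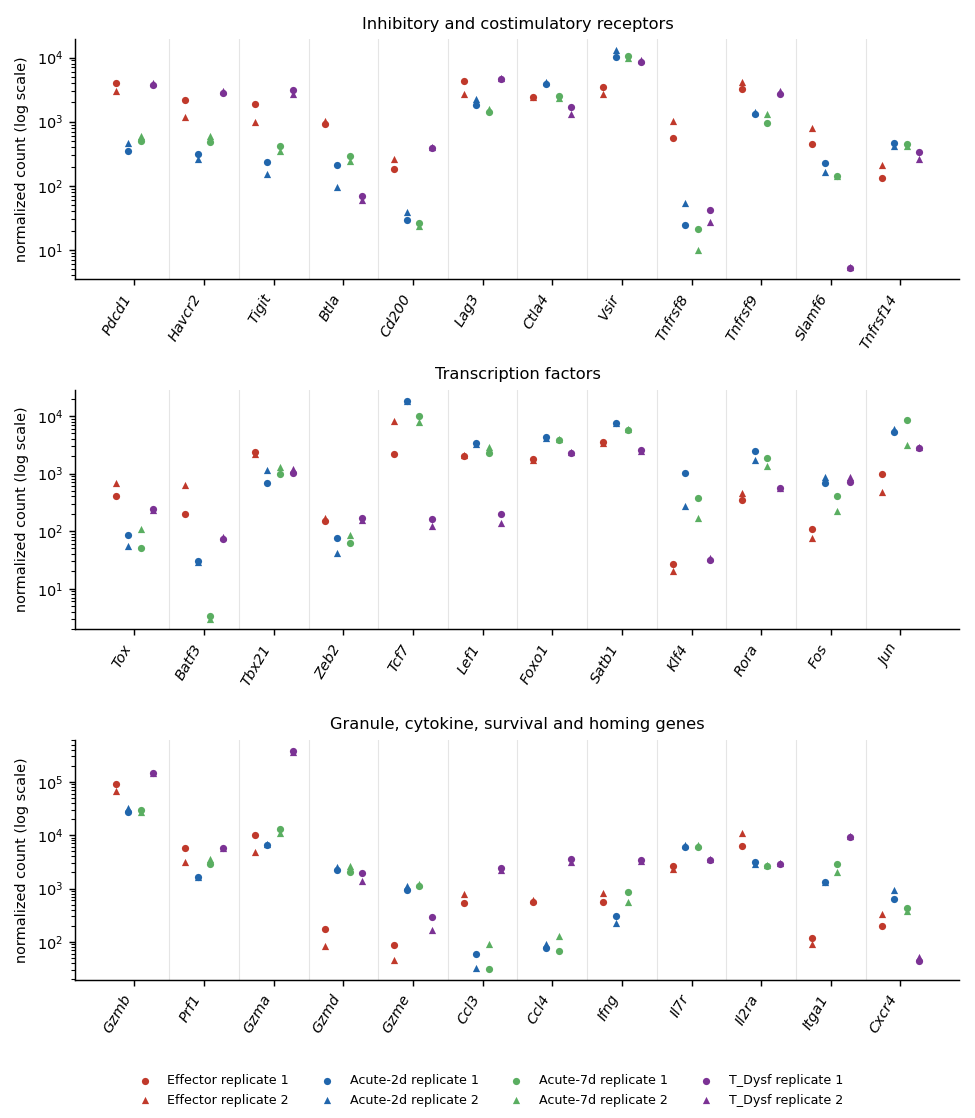
Normalized counts (vertical axis, log scale) of receptors (top), transcription factors (middle) and granule, cytokine, survival and homing genes (bottom) in the 8 libraries; circles are replicate 1 and triangles replicate 2. *Pdcd1* is at 4017 and 3043 in the Effector libraries and at 352 and 462 in the Acute-2d libraries, and *Gzmd* and *Itga1* show the opposite order; the Effector replicates of *Tcf7* lie far apart.

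Lytic granule genes differed in both directions. Of 20 members 3 were called higher (15%, against 4.31% of all genes) and 4 lower (20%, against 4.48%) in Effector, with a median of 0.00. *Gzmb*, granzyme B, had 90949 and 66735 normalized counts in Effector and 27601 and 31971 in Acute-2d (log2 fold change 1.39 ± 0.22, adjusted p = 0.022) and *Prf1*, perforin, 5647 and 3207 in Effector and 1623 and 1642 in Acute-2d (log2 fold change 1.38 ± 0.29, adjusted p = 0.039). The third, *Serpinb6b*, a relative of the granzyme inhibitors, was at 2.79 on the log2 scale. *Gzma*, granzyme A, did not differ beyond its spread (10176 and 4933 in Effector and 6609.8 and 6817 in Acute-2d; log2 fold change 0.08). Granzymes D, E, F and G, a cluster of near-identical genes whose reads may be split by the quantification, were lower. *Gzmd* had 171 and 82.3 in Effector and 2237 and 2487 in Acute-2d (log2 fold change -4.30 ± 0.39, adjusted p = 0.0099), *Gzme* 85.9 and 46.1 in Effector and 946 and 1122 in Acute-2d (log2 fold change -4.01 ± 0.39, adjusted p = 0.011), *Gzmf* 23.8 and 18.1 in Effector and 167 and 209 in Acute-2d (log2 fold change -3.12 ± 0.29, adjusted p = 0.011) and *Gzmg* 15.5 and 0 in Effector and 577 and 578 in Acute-2d (log2 fold change -7.15 ± 1.36, adjusted p = 0.033). Acute-7d was close to Acute-2d, with *Gzmd* at 2069.6 and 2667 and *Gzmb* at 29274 and 27049. *Gzmd* and *Gzmf* were called whichever library was left out; of the higher members the count was 0 without either Acute-2d library, 1 without either Acute-7d library and 0 without either T_Dysf library, and of the lower members the count was 2 without Acute-2d replicate 1.

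Among 18 cytokine and chemokine genes, 3 were called higher and none lower, though 2 were called lower without Effector replicate 1 and 1 without Effector replicate 2; the median was 0.25 (0.09 with genes at the floor set to their bound). The 3 higher members were 16.7% of the list, against 4.31% of all genes. *Ccl3* and *Ccl4*, which encode inflammatory chemokines, had 545 and 805 normalized counts in Effector and 59.0 and 32.4 in Acute-2d (log2 fold change 3.89 ± 0.59, adjusted p = 0.021) and 551 and 616 in Effector and 75.8 and 91.8 in Acute-2d (log2 fold change 2.79 ± 0.33, adjusted p = 0.013). *Ifng*, interferon-γ, had 569 and 838 in Effector and 311 and 221 in Acute-2d (log2 fold change 1.39 ± 0.31, adjusted p = 0.047). *Tnf* (303 and 835 in Effector and 835 and 914 in Acute-2d) overlapped between conditions. Of the called members, the count was 0 without Acute-2d replicate 1 and 1 without Acute-2d replicate 2, 0 without Effector replicate 2 and 1 without either T_Dysf library. *Ifng* was called in 0 of 8 such fits, and Acute-7d values of 859 and 556 lay just above and just below those of Effector.

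Of 24 memory and quiescence transcription factors 6 were called lower (25%, against 4.48% of all genes) and none higher, with a median of -0.88. *Foxo1*, which maintains quiescence and drives *Il7r*, had 1776 and 1692 normalized counts in Effector and 4372 and 4154 in Acute-2d (log2 fold change -1.30 ± 0.05, adjusted p = 0.0014), and *Satb1*, a chromatin organiser of T cells, 3479.6 and 3391 in Effector and 7625 and 7394 in Acute-2d (log2 fold change -1.13 ± 0.04, adjusted p = 0.0012), both with a small spread between replicates. *Klf4*, an inhibitor of T cell division, had 26.5 and 20.1 in Effector and 1037 and 269.9 in Acute-2d (log2 fold change -4.46 ± 0.74, adjusted p = 0.025), with Acute-2d libraries that differed widely. *Kdm5b* (-2.35), *Bcl6* (-1.60) and *Foxo3* (-1.28) completed the 6. *Tcf7*, which encodes TCF-1, the defining factor of memory and stem-like CD8+ T cells, had 2178 and 8065 in Effector and 17888 and 18473 in Acute-2d and was not called (log2 fold change -2.12 ± 0.63, adjusted p = 0.090); both Effector libraries lay below both Acute-2d libraries, but they differed from each other severalfold. *Lef1* (2046 and 2077 in Effector and 3454 and 3297 in Acute-2d; log2 fold change -0.71 ± 0.20, adjusted p = 0.080), *Klf2* (-0.88, adjusted p = 0.038) and *Bach2* (-1.12, adjusted p = 0.065) were not called. *Eomes* (1887 and 1542 in Effector and 1321 and 1127 in Acute-2d) was not called either. *Foxo1* and *Satb1* were called whichever library was left out, and the count was 2 without Acute-2d replicate 1.

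Among 23 effector transcription factors 4 were called higher (17.4%, against 4.31% of all genes) and 2 lower (8.70%, against 4.48%), with a median of 0.21. *Tox*, which is induced by calcineurin and NFAT signalling, had 403 and 690.2 normalized counts in Effector and 85.3 and 55.1 in Acute-2d (log2 fold change 2.93 ± 0.47, adjusted p = 0.023). *Batf3* had 197 and 624 in Effector and 30.5 and 29.1 in Acute-2d (log2 fold change 3.51 ± 0.57, adjusted p = 0.023), while in Acute-7d it was at 3.35 and 3.03. *Tbx21*, which encodes T-bet, the master factor of cytotoxic effector cells, had 2398 and 2189 in Effector and 694 and 1141 in Acute-2d (log2 fold change 1.36 ± 0.29, adjusted p = 0.041), and *Zeb2*, its partner in terminal effector cells, 149.9 and 172 in Effector and 76.9 and 42.1 in Acute-2d (log2 fold change 1.48 ± 0.33, adjusted p = 0.047). *Rora* (350.0 and 451 in Effector and 2428 and 1697 in Acute-2d; log2 fold change -2.35 ± 0.25, adjusted p = 0.012) and *Maf* (55.7 and 78.2 in Effector and 473 and 236 in Acute-2d; log2 fold change -2.32 ± 0.51, adjusted p = 0.045) were lower. *Prdm1*, which encodes Blimp-1, *Irf4* and *Id2* were not called, at 1.16, 1.15 and -0.35. *Rora* was called whichever library was left out; of the higher members the count was 0 without Acute-2d replicate 1 and 2 without Acute-2d replicate 2, 1 without Effector replicate 2, 1 without either Acute-7d library and 0 without either T_Dysf library, and of the lower members the count was 1 without either Acute-2d library, 1 without either Effector library, 1 without either Acute-7d library and 1 without either T_Dysf library.

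Genes that T cell receptor signals induce did not move as 1 group. Of 31, 6 were called lower (19.4%, against 4.48% of all genes) and 1 higher (3.23%, against 4.31%), with a median of -0.26. The AP-1 genes *Fos* (111 and 77.2 normalized counts in Effector and 688 and 878 in Acute-2d; log2 fold change -3.06 ± 0.36, adjusted p = 0.013), *Jun* (989 and 477 in Effector and 5337 and 6051 in Acute-2d; log2 fold change -3.05 ± 0.56, adjusted p = 0.031), *Fosb* (-3.66) and *Fosl2* (-2.14) were lower in Effector. *Cd69*, which holds recently activated and resident cells in tissue, had 1077 and 1385 in Effector and 7469 and 7178 in Acute-2d (log2 fold change -2.58 ± 0.13, adjusted p = 0.0030), and *Dusp6*, a phosphatase of ERK, 2403 and 1054 in Effector and 5993 and 7646 in Acute-2d (log2 fold change -2.09 ± 0.40, adjusted p = 0.033). *Dusp4* was higher (607 and 683 in Effector and 179 and 82.0 in Acute-2d; log2 fold change 2.40 ± 0.50, adjusted p = 0.040). The nuclear receptors *Nr4a1*, *Nr4a2* and *Nr4a3* had positive log2 fold changes of 1.49, 1.93 and 2.36 without overlap between conditions, but none was called (adjusted p = 0.085, 0.054 and 0.065). *Egr1* (1211 and 2272 in Effector and 5664 and 18215 in Acute-2d) and *Egr2* (97.8 and 384 in Effector and 809.9 and 1551 in Acute-2d) were on the other side, at -2.61 and -2.52, and were not called. *Cd69* was called whichever library was left out; of the lower members the count was 3 without Acute-2d replicate 1 and 1 without Acute-2d replicate 2 and 2 without either T_Dysf library, and *Dusp4* was called in 0 of 8 fits; without Effector replicate 1, 3 other members were called higher.

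Homing and cytokine receptor genes changed at a few members. Of 27 homing, adhesion and egress genes 2 were called lower and none higher (median -0.09, or -0.18 with genes at the floor set to their bound). The lower share, 7.41%, was near that of all genes (4.48%) and of genes with a mean of at least 50 (6.37%). *Itga1*, which encodes the collagen-binding integrin CD49a, had 117 and 90.5 normalized counts in Effector and 1334 and 1332 in Acute-2d (log2 fold change -3.68 ± 0.20, adjusted p = 0.0038) and was called whichever library was left out. *Cxcr4* had 196 and 331 in Effector and 637 and 950.0 in Acute-2d (log2 fold change -1.61 ± 0.32, adjusted p = 0.037) and was called in 1 of 8. *Ccr7*, the lymph node homing receptor, had 461 and 2006 in Effector and 3072 and 5304 in Acute-2d (log2 fold change -2.07 ± 0.76, adjusted p = 0.15), and *S1pr1*, the egress receptor, 2035 and 1479.7 in Effector and 3070.0 and 3918 in Acute-2d (log2 fold change -0.999 ± 0.22, adjusted p = 0.047); neither was called, the fold change of *S1pr1* being just under 2. *Cxcr3* was not called (0.25).

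Of 29 cytokine receptor and Socs genes 2 were called higher (6.90%, against 4.31% of all genes) and 6 lower (20.7%, against 4.48%), with a median of -0.28. *Il7r*, the survival receptor of naive and memory T cells, had 2636 and 2314 normalized counts in Effector and 5885 and 6546 in Acute-2d (log2 fold change -1.33 ± 0.10, adjusted p = 0.0075), and *Il4ra* 3869 and 4332 in Effector and 10781 and 11399 in Acute-2d (log2 fold change -1.44 ± 0.11, adjusted p = 0.0078). *Tgfbr2* (-1.06), *Tgfbr3* (-1.64), *Ifngr2* (-3.45) and *Socs3* (-2.16), a feedback inhibitor, were lower as well. *Il2ra*, the high-affinity subunit of the IL-2 receptor, was higher, with 6400.2 and 11199.7 in Effector and 3107 and 2901 in Acute-2d (log2 fold change 1.496 ± 0.26, adjusted p = 0.028). *Il1rl1*, which encodes the IL-33 receptor ST2, had 63.1 and 305 in Effector and 0 and 1.08 in Acute-2d, at least 56.8-fold higher against the floor of 3 reads in each Acute-2d library. *Il2rb*, shared by the IL-2 and IL-15 receptors, was not called (0.65, adjusted p = 0.036). *Il7r* and *Il4ra* were called whichever library was left out; of the higher members the count was 0 without either Acute-2d library, 1 without either Acute-7d library and 1 without either T_Dysf library, and of the lower members the count was 3 without either Acute-2d library and 3 without either T_Dysf library.

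Of 22 survival and death genes 6 were called higher (27.3%, against 4.31% of all genes) and none lower (median 0.13). They included *Casp8* (1.08), which starts death receptor signalling, the death effector *Bak1* (1.06) and the survival genes *Bcl2l1* (1901 and 2604 normalized counts in Effector and 975 and 836 in Acute-2d; log2 fold change 1.30 ± 0.19, adjusted p = 0.019), *Bcl2a1b* (1.05) and *Bcl2a1d* (2.30), the last 2 being near-identical copies. *Bcl2*, the survival gene of memory cells, and *Mcl1* were lower by less than the fold limit, with 9259 and 8001 in Effector and 16382 and 14631 in Acute-2d (log2 fold change -0.85 ± 0.12, adjusted p = 0.019) for *Bcl2* and -0.84 for *Mcl1*. Of the higher members, the count was 0 without either Acute-2d library, 3 without Effector replicate 2 and 3 without either T_Dysf library. Under the 75th percentile scaling it was 3, *Casp8*, *Bak1* and *Bcl2a1b* falling under the fold limit.

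Interferon-stimulated genes were higher in part. Of 36, 11 were called higher (30.6%, against 4.31% of all genes) and none lower, with a median of 0.86. The lowest log2 fold change was -2.29, and 1 member was called lower under limma-voom and under the 75th percentile scaling. *Isg15*, a ubiquitin-like modifier, had 725 and 1819 normalized counts in Effector and 74.8 and 78.8 in Acute-2d (log2 fold change 3.89 ± 0.58, adjusted p = 0.020), *Oasl1* 163 and 219.7 in Effector and 19.0 and 16.2 in Acute-2d (log2 fold change 3.36 ± 0.30, adjusted p = 0.0097), *Ifi27l2a* 3800.5 and 4679 in Effector and 586 and 680.1 in Acute-2d (log2 fold change 2.74 ± 0.24, adjusted p = 0.0097) and *Mx1*, an antiviral GTPase, 3215 and 2969 in Effector and 1140.5 and 868 in Acute-2d (log2 fold change 1.63 ± 0.15, adjusted p = 0.010). *Irf7*, a transcription factor of the pathway, stayed under the fold limit (0.83, adjusted p = 0.039). Effector replicate 2 was the higher of its pair for *Isg15* and *Ifi27l2a* and the lower for *Mx1*. *Oasl1*, *Mx1* and *Ifi27l2a* were called whichever library was left out, and the count was 3 without either Acute-2d library, 5 without Effector replicate 2, 7 without either Acute-7d library and 3 without either T_Dysf library. With the RESUB term *Isg15* had a log2 fold change of 2.88, *Ifit3* went from 2.72 to 1.53, the median was 0.69 and no member was called. In the RESUB fit no list beyond sterol synthesis and mitosis had more than 3 called members.

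The remaining lists held few calls. Of NK type receptors 10.5% were called higher and none lower. Of Gimap and naive T cell surface genes 5% were higher and 20% lower. Over all genes the shares were 4.31% higher and 4.48% lower. In NK type receptors, *Klrk1*, which encodes NKG2D, had 8445 and 5333 normalized counts in Effector and 2582 and 2094 in Acute-2d (log2 fold change 1.53 ± 0.24, adjusted p = 0.022) and *Klre1* 143 and 71.2 in Effector and 22.1 and 13.0 in Acute-2d (log2 fold change 2.51 ± 0.47, adjusted p = 0.032), 2 of 19 (median 0.83), and the count was 0 without either Acute-2d library, 1 without Effector replicate 1 and 4 without Effector replicate 2 and 0 without either T_Dysf library. Among Gimap and naive T cell surface genes, 4 of 20 were lower and 1 higher (median -0.09): *Igfbp4* (67.6 and 222 in Effector and 1244 and 1551 in Acute-2d; log2 fold change -3.49 ± 0.66, adjusted p = 0.032), *Lypd6b* (-2.30), *Art2b* (-2.01) and *Gimap3* (-1.33) were lower and *Ms4a4b* (1.05) was higher. For the lower members the count was 0 without Acute-2d replicate 1 and 1 without Acute-2d replicate 2, 2 without either Acute-7d library and 2 without either T_Dysf library. *Ms4a4b* was not called without either Acute-2d library, without Effector replicate 2 or under the 75th percentile scaling.

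**Figure D5:**
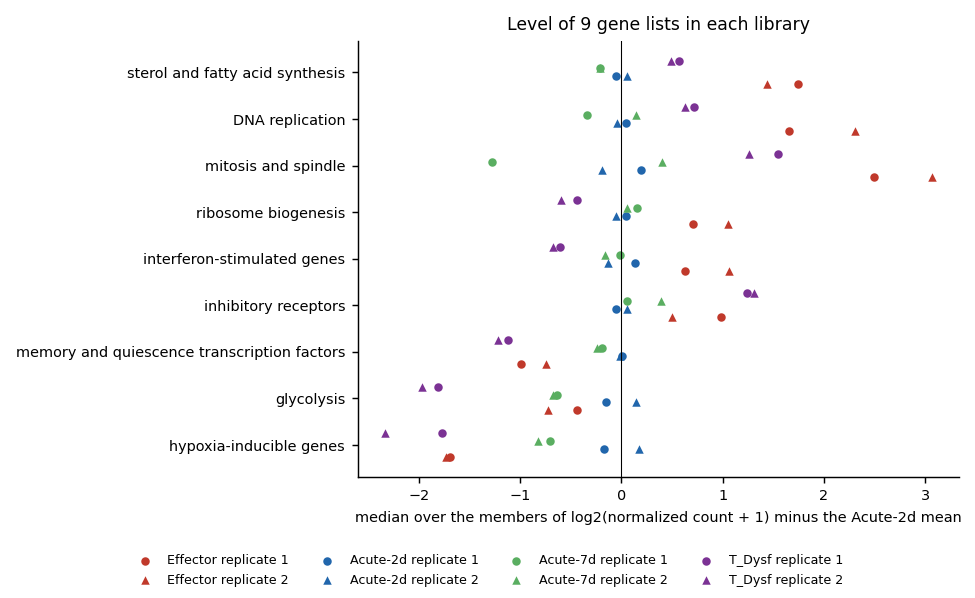
Level of 9 gene lists in each of the 8 libraries, as the median over the members of log2(normalized count + 1) minus the mean of the 2 Acute-2d libraries (horizontal axis); circles are replicate 1 and triangles replicate 2. Both Effector libraries lie right of every other library for sterol synthesis, DNA replication and mitosis, at 1.75 and 1.44 for sterol synthesis, and left of both Acute conditions for hypoxia-inducible genes, at -1.69 and -1.74.

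Regardless of the lists, the 15 genes with the largest differences in each direction were taken from 1505 DEGs that averaged 50 or more and had a gene name, pseudogenes and predicted genes left out. The 15 higher in Effector were *Chl1*, *Il1rl1*, *Ddn*, *Ptpn5*, *Oas2*, *Tnfrsf8*, *Fads2*, *Scd1*, *Coro2a*, *Igfbp7*, *Itih5*, *BC035044*, *Nrgn*, *Ccl3* and *Isg15*, with log2 fold changes from 6.72 down to 3.89. Several are known from other tissues: *Chl1*, a neural adhesion molecule, had 305 and 73.2 normalized counts in Effector and 1.05 and 0 in Acute-2d, at least 58.4-fold higher against the floor (a fitted fold against libraries at the floor depends on the pseudocount), and *Ptpn5*, a neuronal tyrosine phosphatase, had 743 and 259.8 in Effector and 12.6 and 11.9 in Acute-2d (log2 fold change 5.05 ± 0.59, adjusted p = 0.013). *Nrgn*, a calmodulin-binding protein of neurons, had 2095 and 1309 in Effector and 106 and 110.1 in Acute-2d (log2 fold change 3.92 ± 0.53, adjusted p = 0.017). *Coro2a*, an actin-binding coronin, had 9383 and 6952 in Effector and 602 and 312 in Acute-2d (log2 fold change 4.22 ± 0.34, adjusted p = 0.0083) and 1863 and 1898 in Acute-7d. *Fads2*, *Coro2a* and *Igfbp7* were called whichever library was left out.

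The 15 lower in Effector were *Cntn1*, *Vldlr*, *Gzmg*, *Pgr*, *Crisp1*, *Smtnl2*, *P4ha2*, *Scrt1*, *Tgm2*, *Muc2*, *Cdh1*, *Ppp2r2c*, *Acvrl1*, *Itga7* and *Klf4*, with log2 fold changes from -7.79 to -4.46. *Cntn1*, a neural adhesion molecule of the same superfamily as *Chl1*, had 0 and 0 normalized counts in Effector and 241 and 201 in Acute-2d, at least 73.4-fold lower in Effector against the floor, and *Pgr*, the progesterone receptor, had 1.83 and 0 in Effector and 220.1 and 181 in Acute-2d, at least 66.7-fold lower. *Vldlr*, a lipoprotein receptor and HIF target, had 7.31 and 1.0032 in Effector and 795 and 1010.5 in Acute-2d (log2 fold change -7.78 ± 0.78, adjusted p = 0.011). *Acvrl1*, which encodes the TGF-β family receptor ALK1, had 21.9 and 33.1 in Effector and 494 and 884 in Acute-2d (log2 fold change -4.56 ± 0.44, adjusted p = 0.011), and *Tgm2*, transglutaminase 2, 28.3 and 74.9 in Effector and 1776 and 1382 in Acute-2d (log2 fold change -5.05 ± 0.64, adjusted p = 0.015). Several of these were also far lower in Acute-7d than in Acute-2d: *Vldlr* had 72.5 and 99.965 there, *Acvrl1* 60.2 and 75.7 and *Tgm2* 169.6 and 324, although none of the 15 was called in that contrast (0.169% of all genes were). *Cntn1* (353 and 350.4) and *Cdh1*, E-cadherin (1920.1 and 1146 against 819 and 1162 in Acute-2d), were instead at or above the Acute-2d level in Acute-7d. *Cntn1*, *Smtnl2* and *Acvrl1* were called whichever library was left out. Against Acute-7d, 15 of the 15 higher and 10 of the 15 lower genes were called in the same direction, a contrast that shares the Effector libraries and in which 8.06% of all genes were called. The genes with the highest normalized counts, *Eef1a1*, *mt-Co1*, *Actb*, *Eef2*, *Tmsb4x* and *H2-K1*, were not called; *H2-K1*, a class I antigen-presenting molecule, had 71388 and 75205 in Effector and 136321 and 157617 in Acute-2d (log2 fold change -1.0004 ± 0.25, adjusted p = 0.059).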

How the data were processed

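RNA-seq libraries, 2 for each of the 4 groups of CD8+ T cells, were made with polyA selection from purified cells. Reads were mapped by the authors to mm10 using STAR, counted over RefSeq transcripts in Partek Flow and the estimated counts normalized with the median ratio of DESeq2. The deposited values, treated here as a signal, are therefore normalized counts, not raw counts, and no count model was run on them. The methods name a filter on genes with a maximum under 50, but the table holds 11128 such genes of 24303.

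Limma 3.58.1 (R 4.3.3) was fitted to log2(normalized count + 1) of all 8 libraries with a mean per group, with a trend in the prior variance, and p-values were adjusted by Benjamini-Hochberg over all 24303 genes. DEGs changed by 2-fold or more with an adjusted p below 0.05. Fold changes are on the log2(value + 1) scale, which understates changes of low genes. An exact permutation test of 2 against 2 libraries cannot pass 0.05. The paper gives 2 biological replicates for RNA-seq, while the labels only number them and name no animals. The Acute-7d pair differed in sex-linked genes. P-values measure the spread between these libraries. The smallest steps of each column gave 20208641 to 22674387 reads per library, with 73.2 to 75.8% of values whole within 0.02 of a read. The gene lists, the comparison and the 15 largest DEGs per direction (mean of at least 50, named genes) were chosen with earlier results of these data known, and each list is given by its counts and median without a test. List members that were not called are named for their roles, with their values seen. Promoter sequences came from RefSeq (GRCm38.p6) and motif shares count every start. Alternatives were other pseudocounts, filters, scalings, sample sets, a replicate block, a RESUB term, limma-voom and leaving out each library. Results on some genes are not reported here.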

Additional observations from a re-analysis of the deposited data

How the results depend on the processing

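Every one of the 2135 DEGs that an alternative tested kept its direction under it, while the number called moved with the estimate of the spread. The kept direction was largely fixed in advance. Effector and Acute-2d libraries overlapped in no DEG, so leaving out 1 library could not turn a direction. Fits that changed only the estimate of the spread returned the same fold change. The fit of the 4 libraries alone called 235 genes (73 higher, 162 lower), the fit without T_Dysf 1029 (480 and 549) and the fit with a RESUB term 350 (194 and 156). Without a fold limit 3821 genes passed (1929 and 1892), and with adjusted p under 0.1 3055 did (1412 and 1643). By an unadjusted p under 0.05 3705 genes were called (1678 and 2027). Leaving out 1 library gave 553 to 2363 DEGs, 173 to 1175 higher and 380 to 1188 lower. With the 75th percentile scaling 856 of 2161 were higher. The 145 called genes named in the text kept their direction in all 3328 values under the alternatives, many of which could not turn it. They lost the call in 838. Of 46 named genes that were not called, 8 changed sign under a setting. The RESUB term turned *Ddx3y* (-0.62), *Eif2s3y* (-0.42), *Xist* (0.84), *Eomes* (-0.28), *Gzma* (-0.21), *Prdm1* (-0.0039) and *mt-Co1* (0.031). The 75th percentile scaling gave -0.077 for *Gapdh* and -0.019 for *Gzma*. Leaving out 1 library gave -0.12 to 0.16 for *Gapdh*, -0.44 to 0.60 for *Gzma* and -0.27 to 0.049 for *mt-Co1*. Other pseudocounts, filters, scalings, limma without a trend and limma-voom gave between 1957 and 2561 DEGs. Same-numbered Effector and Acute-2d libraries did not deviate together (r = -0.20 across genes). With 2 libraries per group this cannot exclude a pairing, and the labels name no animals. The replicate block called 1545 genes (1470 of them among the 2135). The crossed pairing, added after seeing the data together with the ACGTG search, called 1580.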
